A study of Homo sapiens with 4 samples.

Results

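The regions described here were the strongest A bins of growing IMR90 fibroblasts, the bins of about 200 kb with the highest compartment scores on each autosome. Bins were used if each of 4 Hi-C contact maps listed 50% or more of their pairs on the chromosome, which left 12862 of the 13547 autosomal bins. Compartment scores of these kept bins came from the map of growing cells, as loadings of the leading principal component of the correlations between contact profiles, with the sign set so that positive bins held more protein-coding genes. The highest 20% on each autosome gave 2564 strong A bins, from 33 bins on chromosome 22 to 230 on chromosome 2, and the lowest 20% gave 2564 strong B bins for comparison. Between these lay 2901 other A bins (score above 0) and 4833 other B bins.

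Hi-C fixes chromatin, cuts it with a restriction enzyme (HindIII here), joins ends that are neighbours in the nucleus and reads the joined ends by sequencing. IMR90 cells are human diploid lung fibroblasts. All cells carried pLNCX2 ER:HRAS G12V, an oncogenic RAS protein fused to an oestrogen receptor domain that 4-hydroxytamoxifen (4OHT) switches on. The Grow cells received no 4OHT, and the OIS cells (oncogene-induced senescence) received 100 nM 4OHT for 6 days. Grow-shA1 and OIS-shA1 cells carried in addition a hairpin against HMGA1 (pMSCV miR shHMGA1). There was 1 map per condition. The 2 shA1 maps each pooled 2 samples of the series, while the Grow and OIS maps were made earlier by the same laboratory and match no sample of the series, so shA1 and data set cannot be told apart wherever a map with the hairpin is set against one without it. With 1 map per condition no test was possible, and each difference is given with the number of autosomes that shared its direction. Autosomes of 1 map are not replicates. A contact map holds no RNA, so neither the markers of fibroblasts nor the level of HMGA1 could be checked in it.

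Chromosomes fold into a gene-rich A compartment and a gene-poor B compartment, and regions of one kind meet regions of the same kind more often than regions of the other kind, even when they lie far apart on the chromosome. In senescent fibroblasts B chromatin gathers into compact foci. HMGA1 is an architectural chromatin protein that binds AT-rich DNA in the minor groove and is abundant in senescent chromatin. A strong A bin is therefore a region whose contacts follow the active pattern most closely.

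Because the Grow map chose the members, every value of Grow and every difference that holds it is a description of bins selected on that map. The differences OIS-shA1 minus OIS and OIS-shA1 minus Grow-shA1 rest on maps that did not choose the bins. They are not free of the selection, since members were largely in the highest 20% of those maps too. The share was 89.1% in Grow-shA1, 71.4% in OIS and 70.7% in OIS-shA1, so the choice bears unequally on the maps. On chromosome 1 the last bin inside the limit had a score of 1.00 (chr1:28599443-28800677, with MED18, a Mediator subunit, and PHACTR4) and the first outside had 0.997 (chr1:186196633-186400848, with TPR, a nuclear pore protein, and PRG4, a lubricating proteoglycan). Their mean distal contact with strong A bins in Grow was 0.420 and 0.425 score units, so the limit cut through a continuous range. The contact score of a pair of bins is the authors' value relative to the average contact at that distance. A positive score means more contact than average and a negative score means less.

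The promoters of 5 genes that start in the strong A bins with the most changed contacts between Grow and OIS are shown first, because these bins recur below. Each is the RefSeq sequence from 250 bases before to 50 bases after the start of transcription, written 5′ to 3′ on the gene's strand, and each was found letter for letter in GRCh37 (hg19) at the place given. Capitals mark CpG dinucleotides. MDFIC (an inhibitor of MyoD family factors, plus strand, chr7:114561899-114562198), ATP5PO (a subunit of ATP synthase, minus strand, chr21:35288059-35288358) and KL (Klotho, plus strand, chr13:33590311-33590610) lie in the bins with the largest rise. CHSY1 (chondroitin synthase, minus strand, chr15:101792204-101792503) and LRCH3 (plus strand, chr3:197517875-197518174) lie in bins with the largest fall.
MDFIC: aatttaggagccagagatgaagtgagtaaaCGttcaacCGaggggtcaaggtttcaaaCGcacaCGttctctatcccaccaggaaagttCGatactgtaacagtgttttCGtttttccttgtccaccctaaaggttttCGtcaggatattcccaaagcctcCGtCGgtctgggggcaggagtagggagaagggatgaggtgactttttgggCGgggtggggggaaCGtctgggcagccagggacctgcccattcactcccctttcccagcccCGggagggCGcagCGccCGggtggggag
ATP5PO: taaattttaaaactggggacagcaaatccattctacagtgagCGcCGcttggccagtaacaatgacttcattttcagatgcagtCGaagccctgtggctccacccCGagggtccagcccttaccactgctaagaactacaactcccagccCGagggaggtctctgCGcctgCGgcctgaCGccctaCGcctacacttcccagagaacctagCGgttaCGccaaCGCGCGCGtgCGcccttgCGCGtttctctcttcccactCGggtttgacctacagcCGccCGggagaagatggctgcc
KL: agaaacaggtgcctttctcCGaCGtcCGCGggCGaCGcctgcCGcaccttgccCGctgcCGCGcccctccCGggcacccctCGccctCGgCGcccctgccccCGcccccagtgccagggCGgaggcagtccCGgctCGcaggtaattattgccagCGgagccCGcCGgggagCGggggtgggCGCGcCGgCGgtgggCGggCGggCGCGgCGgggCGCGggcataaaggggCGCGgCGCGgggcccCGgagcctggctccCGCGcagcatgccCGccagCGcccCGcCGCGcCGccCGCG
CHSY1: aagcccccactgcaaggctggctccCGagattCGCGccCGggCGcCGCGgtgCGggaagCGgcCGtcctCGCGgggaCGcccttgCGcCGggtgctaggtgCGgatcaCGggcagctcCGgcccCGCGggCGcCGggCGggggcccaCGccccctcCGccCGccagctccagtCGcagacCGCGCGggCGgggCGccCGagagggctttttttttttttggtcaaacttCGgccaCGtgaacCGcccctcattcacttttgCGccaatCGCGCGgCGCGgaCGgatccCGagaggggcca
LRCH3: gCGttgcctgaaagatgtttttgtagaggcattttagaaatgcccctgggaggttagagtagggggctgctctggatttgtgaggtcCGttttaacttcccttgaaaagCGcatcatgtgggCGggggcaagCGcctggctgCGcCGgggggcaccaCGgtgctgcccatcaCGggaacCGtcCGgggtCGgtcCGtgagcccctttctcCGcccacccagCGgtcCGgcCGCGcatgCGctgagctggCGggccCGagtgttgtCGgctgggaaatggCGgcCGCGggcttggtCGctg
The 5 promoters held 15, 21, 48, 44 and 26 CpG dinucleotides in that order. Over all genes of kept bins with a RefSeq promoter, the median was 25 CpG for 3580 promoters in strong A bins, 21 for 9384 promoters in other kept bins and 6 for the 851 of these that lay in strong B bins. Of 16950 genes in kept bins, 3986 had no promoter in the table. A run of 6 A or T bases (any mix of the letters A and T) was found in 48.5% of strong A promoters and in 58.7% of promoters in other kept bins.

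Strong A bins were rich in genes but were not the richest class. They held 4718 protein-coding genes over 513 Mb, or 9.20 genes per Mb, against 5.96 per Mb in all other kept bins and 2.18 per Mb in strong B bins. The other A bins, with lower scores, held more, at 10.2 genes per Mb. Gene counts set the sign of the score and are given as a description. GC content, which the rule did not use, was 41.9% in strong A bins, 42.8% in other A bins, 40.2% in other B bins and 37.7% in strong B bins. Members had a higher GC content than the other kept bins on 22 of 22 autosomes, by 0.153 percentage points on chromosome 7 up to 5.66 on chromosome 19. Gene density was higher on 21 of 22, with chromosome 6 as the exception (−0.777 genes per Mb). No protein-coding gene started in 29.4% of the members, against 51.8% of all other kept bins. The share was 29.6% in other A bins, close to that of the members, 51.3% in other B bins and 77.8% in strong B bins. HindIII sites, which bear on how densely Hi-C can sample a bin, numbered 56.2 per 200 kb in strong A bins. They numbered 53.4 in other A bins and 58.9 in all other kept bins. Members came in runs, of which the longest spanned 24 bins in a row on chromosome 7 (chr7:77394866-82192941). Of the members, 4.84% lay within 5 Mb of a chromosome end, against 8.48% of other A bins and 6.37% of all other kept bins.

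Gene lists differed widely in how many of their genes lay in strong A bins. Of all protein-coding genes in kept bins, 27.8% started in a strong A bin. For a list of fibroblast matrix and contractile genes the count was 17 of 26 (65.4%), and for a list of secreted factors of senescent cells it was 24 of 37 (64.9%). Proteasome subunits followed with 20 of 39 (51.3%), cytosolic ribosomal proteins with 31 of 68 (45.6%), Mediator subunits with 10 of 23 (43.5%) and cell cycle genes with 14 of 33 (42.4%). Nearer to the share of all genes were mitochondrial ribosomal proteins with 21 of 65 (32.3%), glycolysis genes with 4 of 13 (30.8%) and HOX genes with 10 of 39 (25.6%). At the other end, 9 of 66 replication-dependent histone genes (13.6%), 50 of 478 zinc finger genes named ZNF (10.5%) and 3 of 393 olfactory receptors (0.763%) lay there. None of 149 keratin and keratin-associated genes, 31 beta-defensins or 17 type I interferons did. Genes of a list share bins, since many families lie in clusters, so these shares describe places and not independent genes. The 24 secretory genes lay in 15 bins. HMGA1 itself started in an other A bin (chr6:34198389-34406392), outside the members in all 4 maps.

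**Figure D1:**
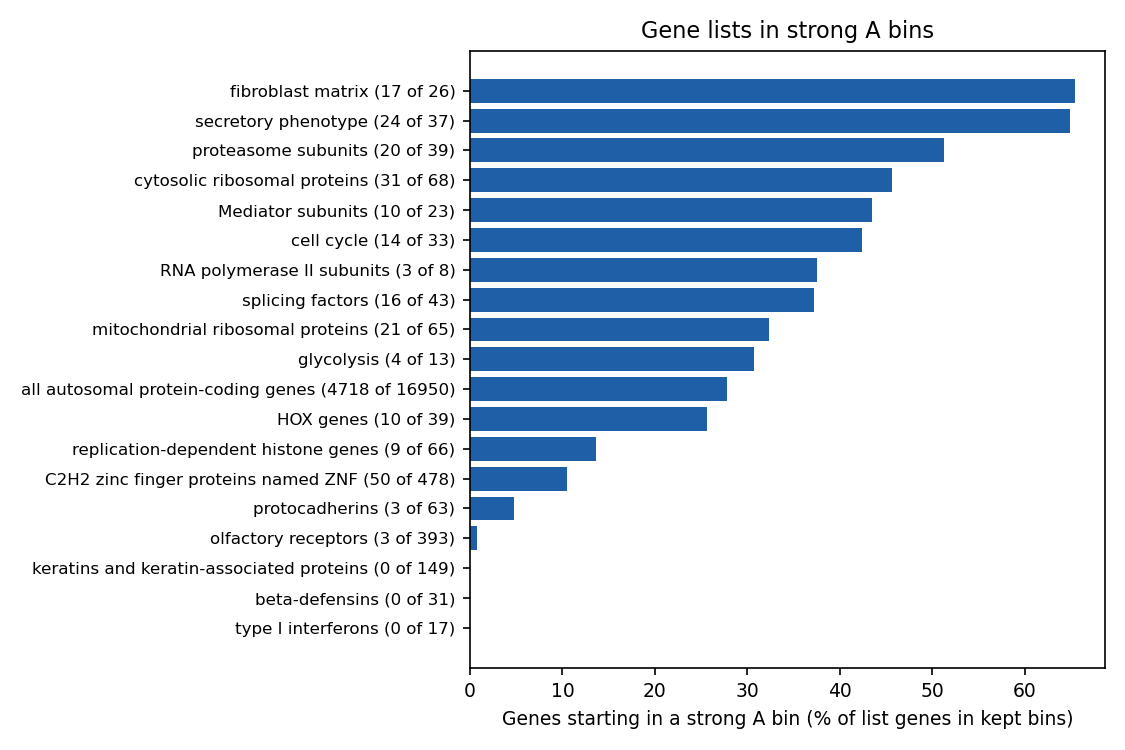
Share of the genes of 18 lists, and of all autosomal protein-coding genes, that start in a strong A bin of Grow, in % of the list genes in kept bins, with the counts beside each name. The fibroblast matrix and secretory lists reach 65.4% and 64.9% against 27.8% of all genes, and 3 lists have no gene there.

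The strong A bins of Grow mostly stayed strong A in the other maps, and almost none left the A compartment. When each map was scored in the same way, 2284 members (89.1%) were in the highest 20% in Grow-shA1, 1830 (71.4%) in OIS and 1812 (70.7%) in OIS-shA1. By the rule, the highest 20% of each map holds 20% of all kept bins. All 2564 members kept a score above 0 in Grow-shA1 and in OIS, and 4 fell to 0 or below in OIS-shA1. Members were chosen as the scores furthest above 0 in Grow, so staying above 0 is partly set by that choice. The same share was not computed for other A bins. In OIS the share that stayed ranged from 57.1% on chromosome 21 to 79.3% on chromosome 4. In all 4 maps 1569 members (61.2%) were in the highest 20%.

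The members outside the highest 20% in both senescent maps were richer in genes and in GC than those inside it in all 4 maps. The 577 members outside the highest 20% of both OIS maps, whatever their place in Grow-shA1, held 12.7 genes per Mb and had a GC content of 44.03%. The 1569 members in the highest 20% of all 4 maps held 7.87 genes per Mb and had a GC content of 41.1%. The 420 bins that entered the highest 20% of both OIS maps, and were in that of neither Grow map, resembled the stable set with 7.65 genes per Mb and 41.0%. The highest 20% as a whole held 9.20 genes per Mb in Grow, 8.92 in Grow-shA1, 8.05 in OIS and 8.22 in OIS-shA1.

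Among the genes of the members, 2979 of 4718 (63.1%) were still in the highest 20% in OIS. For the fibroblast matrix list it was 14 of 17 genes (82.4%), for the secretory list 14 of 24 (58.3%) and for cell cycle genes 8 of 14 (57.1%). In OIS-shA1 it was 2880 of all 4718 genes (61.0%), and the same 3 lists had 14 (82.4%), 14 (58.3%) and 8 (57.1%) such genes. The secretory and cell cycle shares lay near that of all genes. Neighbouring secretory genes differed. On chromosome 4 the bin with CXCL2, CXCL3 and CXCL5 (chr4:74800382-74999546), neutrophil-attracting chemokines, was in the highest 20% of all 4 maps, while the adjacent bin with CXCL1, CXCL6 and CXCL8 (chr4:74601876-74800381) was so in both Grow maps alone. IL6, a cytokine of the secretory phenotype, and the bin with MMP1, MMP3, MMP10 and MMP12, which encode matrix metalloproteinases, were in the highest 20% of all 4 maps. IL1A and IL1B, which encode the upstream cytokines interleukin-1 alpha and beta, shared a bin that was in it in the Grow maps alone. These genes were picked after their values had been seen.

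Distal contact among strong A bins, taken over pairs more than 2 Mb apart, was nearly the same in the 4 maps. The mean score was 0.455 in Grow, 0.436 in Grow-shA1, 0.446 in OIS and 0.434 in OIS-shA1, over the 156268 of 172067 possible pairs that all 4 maps list. The maps listed 98.9%, 97.7%, 96.1% and 96.2% of these pairs. OIS minus Grow was −0.00912, with 12 of 22 autosomes in that direction and a range from −0.0923 on chromosome 15 to 0.203 on chromosome 21. OIS-shA1 minus OIS was −0.0124 (17 of 22), Grow-shA1 minus Grow −0.0195 (17 of 22) and OIS-shA1 minus Grow-shA1 −0.00208 (14 of 22). The interaction, which is the last of these minus OIS minus Grow, was 0.00704, and only 7 of 22 autosomes had its sign. Each difference turned positive, or for the interaction negative, when all maps were centred on the same level per distance (0.0408, 0.0292, 0.0383, 0.0317 and −0.00912). No direction of the overall mean can be given.

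The mean over all distances held opposite differences at short and long distance. Between bins 5 to 10 Mb apart the mean score was 0.425 in Grow, 0.443 in Grow-shA1, 0.582 in OIS and 0.582 in OIS-shA1, so both senescent maps were higher. There OIS minus Grow was 0.157, positive on 22 of 22 autosomes, and OIS-shA1 minus Grow-shA1 was 0.138 (19 of 22). At 2 to 5 Mb the same differences were 0.118 (15 of 22) and 0.0275 (11 of 22), so the rise was smaller between the hairpin maps. At 10 to 20 Mb they were 0.0742 (18 of 22) and 0.0923 (15 of 22). At 50 to 100 Mb they were −0.0434 and −0.0312, and at 100 to 300 Mb −0.152 and −0.141, negative on all 12 autosomes long enough to have at least 20 such pairs. The sign at 5 to 10, 10 to 20 and 100 to 300 Mb was kept in all 12 alternative treatments of the data for OIS minus Grow, whereas that at 20 to 50 and at 50 to 100 Mb was not.

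**Figure D2:**
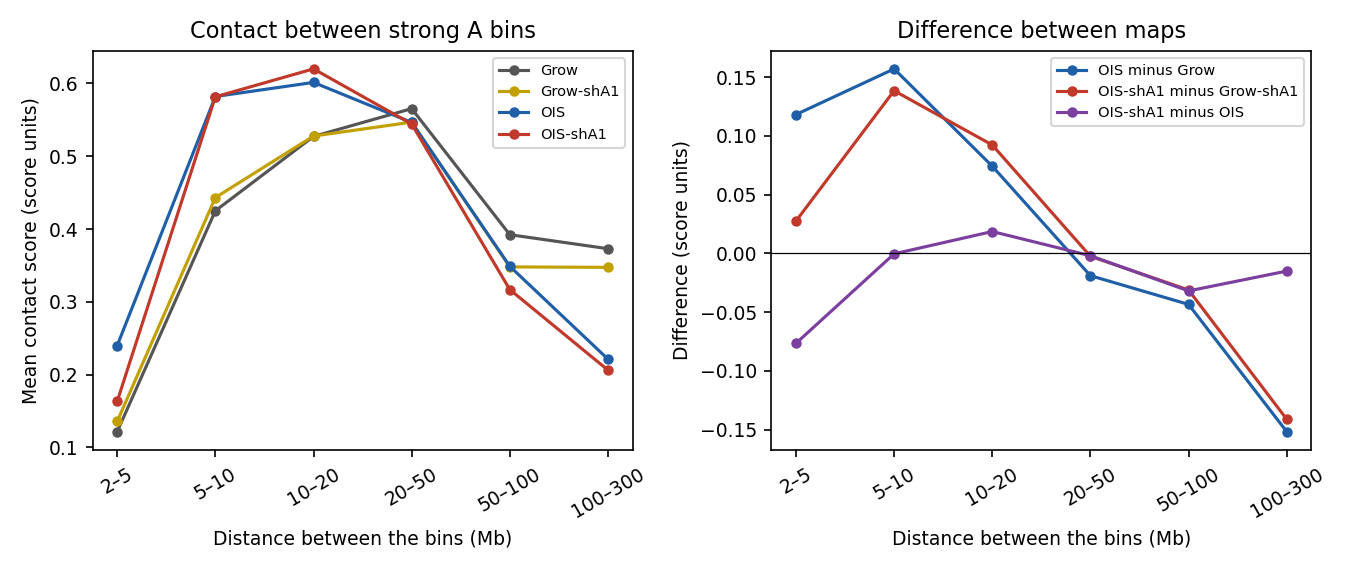
Left, mean contact score (score units) between strong A bins by the distance between them (Mb) in the 4 maps. Right, differences between maps, which pass from 0.157 at 5 to 10 Mb to −0.152 at 100 to 300 Mb for OIS minus Grow. From 5 Mb on, OIS-shA1 minus Grow-shA1 takes close to the same course. At 2 to 5 Mb OIS minus Grow is 0.118, OIS-shA1 minus Grow-shA1 0.0275 and OIS-shA1 minus OIS −0.0766. In each band OIS-shA1 minus OIS is nearer to 0 than OIS minus Grow.

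Part of the loss at long distance lay across the centromere. For pairs of strong A bins on the same arm the mean was 0.505 in Grow, 0.493 in Grow-shA1, 0.543 in OIS and 0.539 in OIS-shA1. Across the centromere it was 0.355, 0.322, 0.253 and 0.223 in the same order. Within arms OIS minus Grow was 0.0372 (17 of 22 autosomes) and −0.102 across the centromere (15 of 17). At a matched distance of 20 to 50 Mb it was −0.00849 within arms and −0.0657 across. OIS-shA1 minus Grow-shA1 was 0.0466 within arms and −0.0995 across, and at 20 to 50 Mb it was 0.0149 and −0.0797. The difference across the centromere was negative in all 12 alternatives, but that within arms turned to −0.0800 when scores were divided by the SD at the same distance.

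Local contact, between strong A bins 2 Mb apart or less, was 0.373 in Grow, 0.316 in Grow-shA1, 0.404 in OIS and 0.244 in OIS-shA1, over 9044 pairs that every map lists. OIS-shA1 was thus the lowest and OIS the highest. OIS-shA1 minus OIS was −0.161, negative on 22 of 22 autosomes (−0.323 on chromosome 21 to −0.0324 on chromosome 17). In growing cells the hairpin difference was −0.0565 (16 of 22). The interaction was −0.104, negative on 21 of 22 autosomes. OIS-shA1 minus OIS kept its sign in every alternative, from −0.170 to −0.112. The difference reached past the 2 Mb limit, to −0.0766 at 2 to 5 Mb (16 of 22), and was −0.000407 at 5 to 10 Mb. It was not particular to pairs of strong A bins, since strong A with other A bins gave −0.124 (19 of 22), while pairs of strong B bins gave a difference of the opposite sign, 0.254 (21 of 22). At distal range the hairpin difference of strong B pairs was −0.232 in OIS and −0.198 in growing cells (21 of 22 each), both larger in size than those of the strong A bins.

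**Figure D3:**
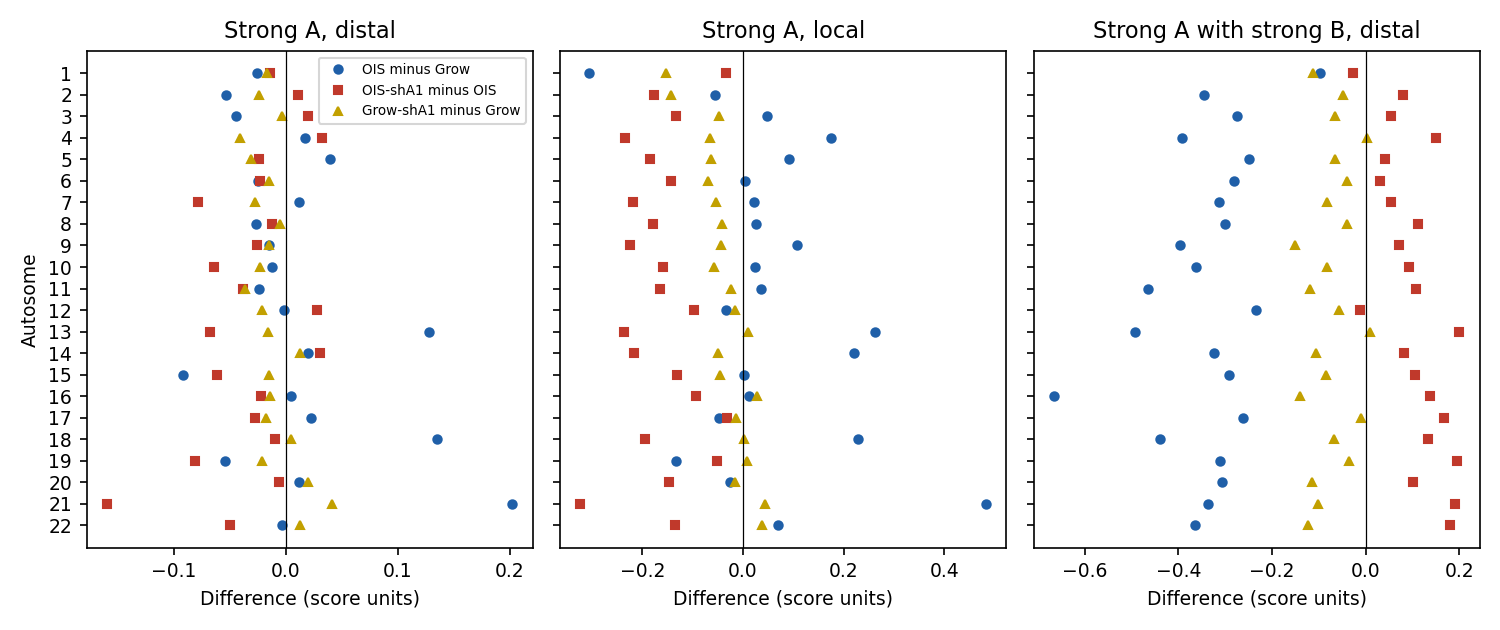
Differences of mean contact score (score units, horizontal axis) on each of 22 autosomes (vertical axis) for 3 comparisons and 3 kinds of pairs. Distal strong A pairs scatter around 0 with chromosome 21 at 0.203 for OIS minus Grow, OIS-shA1 minus OIS lies below 0 on every autosome for local strong A pairs, and OIS minus Grow lies below 0 on every autosome for strong A with strong B.

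Contact of strong A with strong B bins fell furthest below average in senescence. The mean distal score was −0.956 in Grow, −1.02 in Grow-shA1, −1.27 in OIS and −1.20 in OIS-shA1. OIS minus Grow was −0.315 and OIS-shA1 minus Grow-shA1 −0.178, both negative on 22 of 22 autosomes. OIS-shA1 minus OIS was 0.0760, positive on 20 of 22, and Grow-shA1 minus Grow was −0.0615, negative on 20 of 22. The interaction of 0.137 was positive on 22 of 22. The separation was steepest near by, with OIS minus Grow at −0.794 between 2 and 5 Mb and −0.0919 between 20 and 50 Mb. OIS-shA1 minus Grow-shA1 was −0.572 and 0.00465 in these bands, the latter positive on 13 of 21 autosomes. Across the centromere it was 0.0246, against −0.0745 for OIS minus Grow. Strong A with other B bins had −0.401 in Grow, −0.468 in Grow-shA1, −0.407 in OIS and −0.405 in OIS-shA1, so that Grow-shA1 alone was low. OIS minus Grow was small there, at −0.00604 (14 of 22), while Grow-shA1 minus Grow was −0.0673 (19 of 22), OIS-shA1 minus Grow-shA1 was 0.0635 (19 of 22) and the interaction 0.0696 (22 of 22).
The distal strong A with strong B values cover only the 30.3% of possible pairs (109005 of 360061) listed in all 4 maps. Those of strong A with other B bins cover 49.6% (333321 of 672531), where the maps listed 81.3%, 73.1%, 71.3% and 68.8% in the order above. The maps listed 74.1%, 64.7%, 53.3% and 50.6% of the strong A with strong B pairs, so fewer pairs were listed where the scores were lower, except between OIS and OIS-shA1, and the part of this in the result was not tested. Setting unlisted pairs to 0, which stands for average contact, pulls the strong A with strong B means toward 0. It does so most in the maps that list fewest pairs, so it cannot decide the direction. With it, OIS minus Grow became 0.0770 and OIS-shA1 minus Grow-shA1 0.0883. Dividing scores by the SD at the same distance allows for the wider spread of the OIS map. The SD of all scores was 0.906 there, against 0.750 in Grow, 0.765 in Grow-shA1 and 0.845 in OIS-shA1. In SD units, OIS minus Grow was −0.107, OIS-shA1 minus Grow-shA1 −0.0515 and OIS-shA1 minus OIS 0.00204.

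Within the strong A bins, those of like GC content kept together better in OIS than those of unlike GC content. The members of each autosome were split by GC, a property that the rule did not use, into 3 classes of equal size, with median GC of 38.2% in the low and 44.7% in the high class. Pairs within the low class had a mean distal score of 0.494 in Grow, 0.446 in Grow-shA1, 0.580 in OIS and 0.516 in OIS-shA1. Pairs within the high class had 0.513, 0.499, 0.540 and 0.501. Pairs of a low with a high bin had 0.391, 0.388, 0.307 and 0.345, so that OIS had the highest value of the 4 maps for like pairs and the lowest for unlike pairs.
For low with low OIS minus Grow was 0.0858 (13 of 22 autosomes), and it was 0.0263 for high with high (14 of 22) and −0.0841 for low with high (18 of 22). OIS-shA1 minus OIS had the opposite sign each time, at −0.0639 (18 of 22), −0.0391 (18 of 22) and 0.0382 (16 of 22). These 2 comparisons share the OIS map, so their opposite signs are not independent. OIS-shA1 minus Grow-shA1 was 0.0705, 0.00196 and −0.0430. At a matched distance of 20 to 50 Mb, OIS minus Grow was 0.0829, 0.0188 and −0.0993 for the 3 kinds of pairs, and OIS-shA1 minus OIS was −0.0567, −0.0399 and 0.0610. The signs depended on distance. For OIS minus Grow, low with low was positive up to 100 Mb and −0.158 beyond. High with high was positive up to 50 Mb, −0.0294 at 50 to 100 Mb and −0.0907 beyond. Low with high was 0.0380 at 2 to 5 Mb, 0.0667 at 5 to 10 Mb and negative beyond. In each band both kinds of like pairs lay above low with high. OIS-shA1 minus OIS for low with high was −0.0416 at 2 to 5 Mb and −0.00129 at 100 to 300 Mb. Over all distal pairs, the signs of OIS-shA1 minus OIS for low with low and for low with high were kept in all 12 alternatives. For OIS minus Grow the rises of like pairs turned to −0.0675 and −0.168 when scores were divided by the SD at the same distance, and the fall of unlike pairs turned to 0.0514 for bins chosen by the OIS map.

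**Figure D4:**
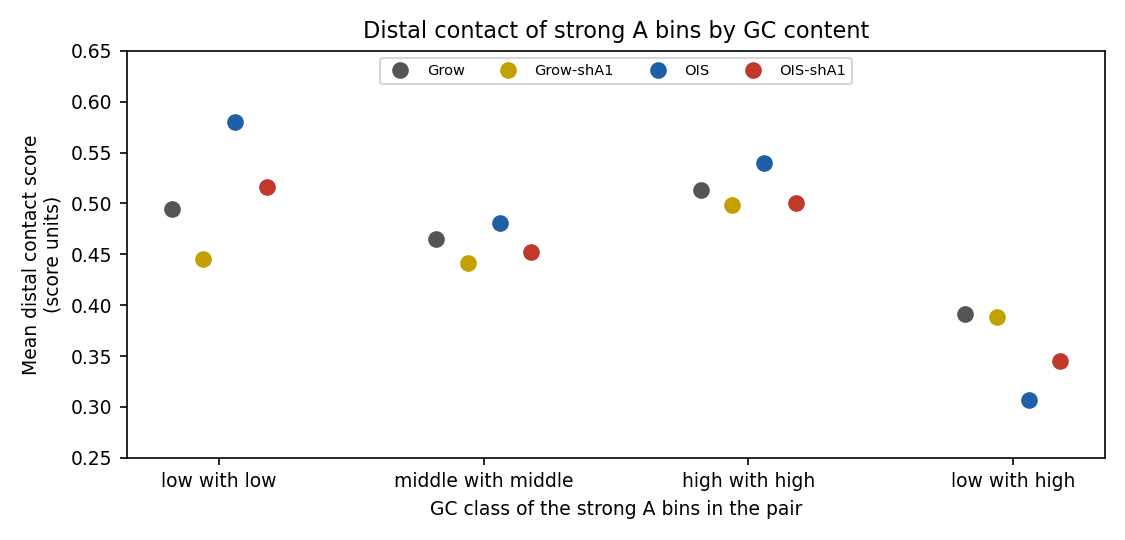
Mean distal contact score (score units) of pairs of strong A bins by their GC classes, 1 point per map. OIS is the highest map for low with low (0.580) and high with high (0.540) and the lowest for low with high (0.307).

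Single members differed widely in their own mean contact with the other strong A bins. A value was computed for the 2559 members with at least 20 distal pairs listed in all 4 maps. The lowest, median and highest were −0.163, 0.461 and 1.15 in Grow and −0.254, 0.445 and 1.26 in Grow-shA1. They were −0.305, 0.456 and 1.15 in OIS and −0.556, 0.446 and 1.15 in OIS-shA1. The 5 bins with the highest values in Grow, taken 1 per autosome, held 17, 4, 1, 8 and 4 genes. The first was chr19:55803087-56009842, with RPL28, a ribosomal protein, and IL11, a cytokine, among its genes. Its values were 1.15 in Grow, 1.06 in Grow-shA1, 1.12 in OIS and 0.809 in OIS-shA1. Next came chr22:31601503-31800206, with LIMK2, a kinase of the actin cytoskeleton, at 1.12, 1.09, 1.08 and 1.12.

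With the scores as deposited, changes of a member's contact with strong A bins were mostly no more frequent than those of kept bins in general. In OIS minus Grow, 555 of 2559 members (21.7%) were higher by over 0.1 score units and 571 (22.3%) were lower, beside 22.1% and 39% of all 11998 bins with a value. In OIS-shA1 minus OIS, 302 (11.8%) were higher and 513 (20.05%) lower, beside 27.1% and 19%. In Grow-shA1 minus Grow, 89 (3.48%) were higher and 224 (8.75%) lower, beside 5.48% and 23.8%. In OIS-shA1 minus Grow-shA1, 602 (23.5%) were higher and 639 (24.97%) lower, beside 28.6% and 33%. The split moved with the scaling, and shares over all kept bins were not computed for the other scalings. With a common centre the numbers higher and lower were 938 and 320, 533 and 298, 390 and 45, and 863 and 457 in the order above. With scores divided by the SD they were 205 and 1538, 777 and 361, 216 and 629, and 454 and 1213. There the limit of 0.1 is in SD units and not in score units, so these counts rest on another threshold.
For contact with strong B bins 1828 members had a value. In OIS minus Grow 1526 of them (83.5%) were lower by over 0.1, beside 57.8% of all bins with a value, and in OIS-shA1 minus Grow-shA1 1177 (64.4%) were lower, beside 52.9%. In OIS-shA1 minus OIS 810 (44.3%) were higher, beside 26.4%, and in Grow-shA1 minus Grow 765 (41.8%) were lower, beside 45.2%.

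The bin that gained most between Grow and OIS was that of MDFIC (chr7:114398943-114597127, GC 36.7%). Its mean distal contact with strong A bins was 0.268 in Grow, 0.167 in Grow-shA1, 0.789 in OIS and 0.557 in OIS-shA1, so both senescent maps lay above both growing maps. Its contact with strong B bins went the other way, at −0.495, −0.544, −1.04 and −0.940. The bin of ATP5PO (chr21:35205020-35400163) had 0.291, 0.338, 0.781 and 0.484, and the bin of KL (chr13:33398627-33593688) had 0.233, 0.249, 0.631 and 0.567. The KL bin gained in senescence in both pairs of maps, while most of the gain of the ATP5PO bin, which rests on 23 pairs, was missing from OIS-shA1. This was not particular to that bin, since all distal strong A pairs of chromosome 21 had means of 0.164, 0.205, 0.367 and 0.207. The bin next to that of ATP5PO, with MRPS6, a mitochondrial ribosomal protein, had 0.145, 0.135, 0.578 and 0.454, and kept most of its gain in OIS-shA1.

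Of the 3 largest falls, 2 lay within 5 Mb of the end of a chromosome. The bin of CHSY1 (chr15:101595512-101798933) had 0.910 in Grow, 0.847 in Grow-shA1, 0.441 in OIS and 0.417 in OIS-shA1. The bin of LRCH3 (chr3:197400781-197601104), which also holds RUBCN, a regulator of autophagy, had 0.568, 0.451, 0.134 and 0.0984. A gene-free bin on chromosome 20 (chr20:9202410-9396696) had 0.470, 0.284, −0.0566 and −0.0248. In each of these the 2 senescent maps were below the 2 growing maps. Between the shA1 maps the bins that fell most were those of DIP2A (chr21:47799300-47998739), at −0.0196 in Grow-shA1 and −0.556 in OIS-shA1, CDH13, which encodes T-cadherin, at 0.235 and −0.262, and EHMT1, a histone H3 methyltransferase, at 0.344 and −0.0860. The bins that rose most there were those of FHOD3, a formin, at 0.328 in Grow-shA1 and 0.767 in OIS-shA1, PTPN1, a tyrosine phosphatase, at 0.448 and 0.865, and DDHD1, a phospholipase, at −0.254 and 0.144.

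Between OIS and OIS-shA1 the largest rise was in a gene-free bin on chromosome 12 (chr12:106000759-106200115), which had −0.0332 in OIS and 0.337 in OIS-shA1 beside 0.198 in Grow and 0.189 in Grow-shA1. OIS alone was low there. The bin of LIPG, an endothelial lipase, and RPL17, a ribosomal protein, had 0.158 in OIS and 0.473 in OIS-shA1, and that of FHDC1 had 0.279 and 0.577. The largest fall was in a bin of 9 genes on chromosome 19 (chr19:18995014-19201487), with HOMER3, a scaffold protein, and DDX49, an RNA helicase. It had 0.848 in Grow, 0.863 in Grow-shA1, 0.901 in OIS and 0.516 in OIS-shA1, so OIS-shA1 alone was low.
Between Grow and Grow-shA1 the differences of the named bins lay between −0.327 in a gene-free bin on chromosome 1 (chr1:185399853-185594598) and 0.263 in the bin of SON, an RNA splicing protein, and GART, an enzyme of purine synthesis. In the first of these Grow-shA1 was at 0.00790 and the other 3 maps were between 0.271 and 0.335.

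For genes of the senescence programme the median difference was small and members of a list went both ways. Over the bins of the 24 secretory genes the median of OIS minus Grow was −0.0155 and of OIS-shA1 minus OIS −0.0556. Over the strong A bins that hold any protein-coding gene the medians were −0.00210 and −0.0118. These medians, and those of the lists below, count each bin once. HGF, a growth factor, rose most, with 0.312 in Grow, 0.227 in Grow-shA1, 0.481 in OIS and 0.365 in OIS-shA1. The bin of the growth factor genes AREG and EREG fell most, with 0.456, 0.363, 0.294 and 0.345. The bin of ICAM1, an adhesion molecule, had 0.798, 0.608, 0.933 and 0.703, so it was lower in each hairpin map than in its counterpart.
Among cell cycle genes (medians 0.0415 and 0.0388) the bin of PLK4, a kinase of centriole duplication, rose most, with 0.410, 0.413, 0.578 and 0.751. The bin of CDKN2B, an inhibitor of cyclin-dependent kinases, fell most, with 0.682, 0.635, 0.485 and 0.258. Both senescent maps lay above the growing maps for PLK4 and below them for CDKN2B, and OIS-shA1 was the extreme in each.
Among fibroblast matrix genes (medians −0.0384 and −0.0328) POSTN, which encodes periostin, rose most, with 0.389, 0.366, 0.573 and 0.499, and FBLN1, which encodes fibulin 1, fell most, with 0.672, 0.789, 0.3004 and 0.503. The bin of COL1A1, the main chain of type I collagen, kept a high value in every map, at 0.893, 0.914, 1.06 and 0.980. The HOX genes in strong A bins were those of the HOXB cluster, patterning genes that lay in 2 adjacent bins. HOXB1 to HOXB9 had 0.410, 0.380, 0.621 and 0.609, and HOXB13 had 0.459, 0.455, 0.429 and 0.636.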

How the data were processed

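Hi-C contacts were given as 1 table per condition. The submitters' processing notes name HiC-Pro and hg19. Per the paper's methods, the authors removed duplicates and artefacts, binned contacts at about 200 kb, balanced the matrices and corrected for distance. The deposited score of a bin pair is relative to the average contact at its distance. Its logarithm base and prior are not given in the sources used here, so differences are in score units and no folds were formed. The deposited bin list gives start and end in base pairs. Its 24 chromosome ends equal those of GRCh37, and 14406 of 14420 inner edges lay within 7 bp of a HindIII site.

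Genes (GENCODE lifted to GRCh37) were placed by their start of transcription. Class means were taken over pairs listed in all 4 maps. Principal components were computed with NumPy 2.4.6 and pandas 2.3.3, and the steps were tested on simulated data. Bins were named as the 5 highest in Grow and the 3 largest rises and falls of each comparison, 1 per autosome, among bins with at least 20 and at least 50% of their pairs. From each gene list the largest rise and fall were named. The members and lists were chosen with earlier results of these data known. Depth is known only as the share of pairs listed, and no replicate spread exists, so no p-values were computed. Alternatives changed the scaling, the pairs used, the distance limits and the choice of bins. Chromosomes X and Y were left out.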

Additional observations from a re-analysis of the deposited data

Results flagged for a closer look

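The effects of 1 treatment had opposite signs under the other in 3 kinds of contact of the strong A bins. The differences between the effects were not tested, since there was 1 map per condition. For local strong A pairs OIS minus Grow was 0.0317 without the hairpin and OIS-shA1 minus Grow-shA1 was −0.0727, a difference of 0.104. For distal strong A with strong B pairs the hairpin difference was 0.0760 in OIS and −0.0615 in Grow, a difference of 0.137. For local strong A with strong B pairs the same values were 0.0906 and −0.114, a difference of 0.205. The sign of the difference between effects was shared by 21, 22 and 21 of 22 autosomes. The opposite signs were lost in some alternatives. With a common centre the local strong A values were 0.182 without and 0.0258 with the hairpin, and with scores divided by the SD at the same distance they were −0.0141 and −0.0824. With unlisted pairs at 0 the distal strong A with strong B values were 0.0622 in OIS and 0.0509 in Grow. That setting pulls these means toward 0 most where fewest pairs are listed, so it cannot decide the signs. An equal offset between both data sets drops out of these differences, but one that differs between growing and senescent maps cannot be told apart from them.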

How the results depend on the processing

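Differences are named here by what they set apart. The RAS difference is that of OIS from Grow and, with shA1, that between the hairpin maps, and the shA1 difference is that of a hairpin map from its counterpart. Each value was recomputed under the alternatives that apply to it, and a value was called moved when it shifted by more than its SD over autosomes (over bins for a single bin) or, for a count, by more than 1.5 times. Of 336 recomputed values that answer a comparison, 251 were of the same direction and close in size, 62 moved and 23 had the opposite direction. Of 587 others, 511, 49 and 27 did so. The alternatives for distance bands, arms and GC classes were chosen after seeing the data. The cause of these shifts was not tested. Counts of bins under the alternatives were made for members alone, with no share over all kept bins beside them. The shA1 difference in OIS for local strong A contact, the same difference for distal strong A with strong B contact, and the higher gene density and GC content of strong A bins kept their direction in every alternative run. Some local strong A differences changed sign with a common centre or with scores divided by the SD, and under no other alternative. No paired analysis was possible because the deposited maps pool the replicates of each shA1 condition. Read counts per pair were not used here, so counting error is unknown, and depth limits the strong A with strong B pairs most.

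With a common centre, distal strong A contact gave 0.0408 for the RAS difference, 0.0292 for the shA1 difference in OIS, 0.0383 for the shA1 difference in Grow, 0.0317 for the RAS difference with shA1 and −0.00912 for the interaction. Local strong A contact gave 0.00154 for the shA1 difference in Grow and 0.0258 for the RAS difference with shA1, and strong A with strong B gave −0.0101 for the shA1 difference in Grow. The numbers of members higher and lower were 938 and 320 for the RAS difference, 533 and 298 for the shA1 difference in OIS, and 390 and 45 for the shA1 difference in Grow. By distance, the shA1 difference in OIS came to 0.0113 at 5 to 10 Mb and 0.0409 at 20 to 50 Mb, then 0.0355 at 50 to 100 Mb, with 0.0205 beyond that up to 300 Mb, the RAS difference was 0.0477 at 20 to 50 Mb, and the highest GC class gave 0.00125 for the shA1 difference in OIS.

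With scores divided by the SD at the same distance, distal strong A contact gave −0.182 for the RAS difference, 0.0412 for the shA1 difference in OIS, −0.0400 for the shA1 difference in Grow, −0.101 for the RAS difference with shA1 and 0.0812 for the interaction. Local strong A contact gave −0.0141 for the RAS difference. Strong A with strong B gave −0.107 for the RAS difference, 0.00204 for the shA1 difference in OIS, −0.0515 for the RAS difference with shA1 and 0.0557 for the interaction. These values are in SD units, so a shift from the value in score units also holds the change of unit. With the limit of 0.1 in SD units, members higher and lower were 205 and 1538 for the RAS difference and 216 and 629 for the shA1 difference in Grow. For the shA1 difference in OIS 777 were higher, and for the RAS difference with shA1 1213 were lower. The shA1 difference in OIS came to 0.0205 at 5 to 10 Mb, 0.0598 at 20 to 50 Mb, then 0.0368 at 50 to 100 Mb, with 0.0342 beyond that up to 300 Mb, and 0.0250 in the highest GC class. The RAS difference was −0.0800 within arms, −0.0675 in the lowest GC class and −0.168 in the highest.

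Values with unlisted pairs at 0 depend on the share of pairs that each map lists. With unlisted pairs at 0, strong A with strong B gave 0.0770 for the RAS difference, 0.0509 for the shA1 difference in Grow, 0.0883 for the RAS difference with shA1 and 0.0113 for the interaction. The shA1 difference in OIS at 5 to 10 Mb came to 6.00e-05 so and 0.000258 with every pair a map lists. The bin of PLD3 and PRX on chromosome 19 had −0.0553 and −0.0488 in these settings for the shA1 difference in Grow, against 0.232. With the mean of the autosome values, distal strong A contact gave 0.00982 for the RAS difference and −0.0177 for the interaction, and the shA1 difference in OIS came to −0.00589 at 10 to 20 Mb. Between 2 and 50 Mb, distal strong A contact gave 0.0374 for the RAS difference and 0.0413 for the RAS difference with shA1, and 913, 460, 167 and 929 members were higher in the RAS difference, the shA1 difference in OIS, the shA1 difference in Grow and the RAS difference with shA1.

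Bins chosen by the Grow-shA1 map gave distal strong A values of 0.000808 for the shA1 difference in Grow and 0.00638 for the shA1 difference in OIS, with 179 bins higher and 126 lower in the first. The shA1 difference in OIS came to 0.0229 at 5 to 10 Mb and 0.0199 at 20 to 50 Mb. Bins chosen by the OIS map gave distal strong A values of 0.105 for the RAS difference and 0.117 for the RAS difference with shA1, and strong A with strong B values of −0.458 and −0.313. In the first comparison 1319 bins were higher and 142 lower, in the second 1362 and 208, and 139 were higher in the shA1 difference in Grow. The RAS difference was 0.0928 at 20 to 50 Mb, 0.0732 at 50 to 100 Mb and 0.0514 for low with high GC, and the shA1 difference in OIS came to 0.0167 at 5 to 10 Mb and 0.0157 at 20 to 50 Mb.

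With the highest 10% as members, distal strong A contact gave 0.00758 for the RAS difference and 0.0241 for the RAS difference with shA1, and the shA1 difference in OIS at 5 to 10 Mb came to 0.0342. In the RAS difference 349 were higher and 252 lower, in the RAS difference with shA1 397 and 250, and 247 were lower in the shA1 difference in OIS. The members in the same share of Grow-shA1, OIS and OIS-shA1 were 1041, 770 and 764, and with the highest 30% they were 3637, 3088 and 3041, with 0.00183 for the RAS difference with shA1. At over 0.2 score units the members higher and lower were 155 and 167 in the RAS difference, 50 and 104 in the shA1 difference in OIS, 9 and 14 in the shA1 difference in Grow, and 187 and 212 in the RAS difference with shA1. At over 0 they were 1262 and 1297, 1097 and 1462, 1007 and 1552, and 1256 and 1303.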
